A study of Mus musculus with 6 samples.

Results

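Small nucleolar RNAs (snoRNAs) guide the chemical modification of ribosomal and other RNAs, and most of them in mammals are cut from the introns of longer host transcripts. In noncoding host genes the spliced exons hold only short reading frames, are nevertheless engaged by ribosomes, and are then degraded by nonsense-mediated decay (NMD), the pathway that removes RNAs whose translation stops early. Several of these hosts are known as 5′ terminal oligopyrimidine (TOP) genes, which start at a run of pyrimidines, as ribosomal protein genes typically do, and the translation of TOP mRNAs depends on mTOR and the RNA-binding protein LARP1.
The genes described here are 7 noncoding hosts, Gas5, Snhg1, Snhg3, Snhg6, Snhg8, Snhg12 and Snhg15, taken by name from the 40166 genes of the deposited count table. They were measured by bulk RNA sequencing in 6 subcutaneous YUMM3.3 tumors of C57BL/6 mice, 3 from mice given water (vehicle) and 3 from mice given rigosertib (RGS) at 300 mg/kg, both by gavage on 5 days a week, with tumors taken at day 17 of dosing. The line YUMM3.3 is a cultured mouse melanoma with mutant Braf, so every tumor in both groups came from this 1 line, and the sex and age of the mice behind these libraries are not in the labels. RGS is a small molecule that the study describes as a RAS mimetic. The study also mentions several reported mechanisms of action and a dispute over the source of microtubule-destabilizing activity in RGS preparations.

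All 7 hosts are annotated as noncoding (lincRNA or processed transcript) and together hold 28 snoRNA annotations in GENCODE, among them overlapping entries for the same snoRNA (Snord80 in Gas5 and Snora16a in Snhg12), with 10 in Gas5, 8 in Snhg1, 5 in Snhg12, 2 in Snhg3 and 1 each in Snhg6, Snhg8 and Snhg15. On GRCm38, Gas5 (ENSMUSG00000053332.13) lies at chr1:161034422-161038539 on the plus strand, Snhg1 (ENSMUSG00000108414.1) at chr19:8723475-8726443 on the plus strand and Snhg12 (ENSMUSG00000086290.9) at chr4:132308623-132311024 on the plus strand. The other members are on the minus strand: Snhg3 (ENSMUSG00000085241.7) at chr4:132348014-132353686, Snhg6 (ENSMUSG00000098234.7) at chr1:9941959-9944118, Snhg8 (ENSMUSG00000104960.1) at chr3:123507552-123508404 and Snhg15 (ENSMUSG00000085156.7) at chr11:6525591-6528760.
To show what the hosts carry, 6 of these snoRNAs are printed from GENCODE (GRCm38), covering both kinds of guide and 5 of the hosts. In Snord47, Snord87 and Snord99 the capitals mark the letters TGATGA and CTGA of the C and D boxes that bind the methylation guide proteins, and in Snora24, Snora61 and Snora9 they mark the ACA near the 3′ end of pseudouridylation guides.
Snord47 (Gas5, chr1:161038082-161038158, plus): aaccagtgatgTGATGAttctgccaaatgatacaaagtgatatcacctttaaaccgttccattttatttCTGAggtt
Snord87 (Snhg6, chr1:9942463-9942549, minus): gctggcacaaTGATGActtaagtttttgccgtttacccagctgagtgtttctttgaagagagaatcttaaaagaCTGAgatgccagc
Snora24 (Snhg8, chr3:123507937-123508066, minus): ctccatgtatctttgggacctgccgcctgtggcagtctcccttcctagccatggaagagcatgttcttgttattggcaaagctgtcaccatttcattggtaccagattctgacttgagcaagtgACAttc
Snora61 (Snhg12, chr4:132310240-132310369, plus): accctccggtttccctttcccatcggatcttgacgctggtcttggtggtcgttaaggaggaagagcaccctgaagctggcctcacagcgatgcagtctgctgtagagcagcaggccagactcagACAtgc
Snord99 (Snhg12, chr4:132310691-132310764, plus): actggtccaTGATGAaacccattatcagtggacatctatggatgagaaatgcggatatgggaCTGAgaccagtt
Snora9 (Snhg15, chr11:6528033-6528165, minus): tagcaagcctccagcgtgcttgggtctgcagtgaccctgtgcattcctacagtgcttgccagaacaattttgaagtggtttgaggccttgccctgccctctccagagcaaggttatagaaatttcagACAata
Of the 28 annotations, 16 held TGATGA within 20 bases of the 5′ end and CTGA within 20 bases of the 3′ end, against 20.6% of all 1507 snoRNA transcripts in GENCODE, and another 7 held ACA in the last 8 bases, against 46.0%. The table used here has a row for 1 of the 28, Snord87, which had 0 counts in all 6 tumors. The values below are therefore for the host rows, and snoRNAs without a row were not measured apart from them. Annotated snoRNA bases made up 17.8% of the counted bases of Gas5, 20.9% in Snhg1, 19.6% in Snhg12 and 16.1% in Snhg3. They made up 15.2% in Snhg8, 9.79% in Snhg15 and 0% in Snhg6, and reads from them can count for the host.

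The start sites of the hosts are shown because a pyrimidine run at the start is the feature by which TOP genes are known. Each line gives 15 bases before a RefSeq start site and 25 bases from it onward (GRCm38.p6), with the longest run of C and T that reaches within 5 bases of the start in capitals. Gas5 has 2 RefSeq starts, and the one with the longer run is printed. Snhg6 has no entry in the promoter table.
Gas5 (chr1:161035151-161035190, plus): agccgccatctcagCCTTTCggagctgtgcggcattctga
Snhg1 (chr19:8723472-8723511, plus): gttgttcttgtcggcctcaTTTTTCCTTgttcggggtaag
Snhg3 (chr4:132353662-132353701, minus): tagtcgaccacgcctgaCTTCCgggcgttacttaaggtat
Snhg8 (chr3:123508312-123508351, minus): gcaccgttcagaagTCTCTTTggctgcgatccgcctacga
Snhg12 (chr4:132308663-132308702, plus): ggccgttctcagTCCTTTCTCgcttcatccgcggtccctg
Snhg15 (chr11:6528736-6528775, minus): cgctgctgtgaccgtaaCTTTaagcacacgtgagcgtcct
A run of at least 5 pyrimidines stood there in 5 of the 7 member start sites, in 37 of 74 start sites of ribosomal protein genes and in 31.4% of all 32851 start sites. The 7 include both starts of Gas5. In Snhg1 and Snhg3 the run begins 4 and 2 bases after the annotated start and does not include the start base. The runs of Snhg12 and Snhg1 had 9 bases, that of Snhg8 had 7 and that of Snhg15 had 4. The match is a description of letters around an annotated start and was not tested against expression.

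The libraries held between 13837932 and 32555494 counts assigned to genes, with all vehicle libraries above all RGS libraries, and sequencing depth therefore cannot be told apart from treatment. Ribosomal protein genes (82 genes) took 5.66% to 10.2% of the counts in vehicle tumors and 3.15% to 3.68% in RGS tumors, and mitochondrial genes took 2.13% to 3.20% and 5.60% to 8.22%. The tissue label was checked against defining markers: of 7 melanocyte genes, Tyr, Dct and Mlana had no count in any tumor, the list summed to 4.94 to 7.67 normalised read counts (CPM, counts per 1000000) with vehicle and 4.53 to 10.5 CPM with RGS, and Mitf supplied most of it. T and NK cell markers were at 0 for 6 of 8 genes (Cd3d, Cd3e, Cd3g, Cd8a, Cd8b1 and Nkg7). Macrophage and endothelial markers were also at or near 0 apart from Cd68, Cdh5 and Pecam1. Defining markers of melanocytes, T and NK cells, macrophages and endothelium were therefore mostly absent, which goes against the labelled tissue, and the libraries are called tumors by their labels alone. The 6 genes of dividing cells were all lower in RGS tumors, Top2a among them with 175 CPM with vehicle and 75.2 CPM with RGS (summed level 525 to 578 CPM with vehicle, 193 to 233 CPM with RGS). Summed levels of the other marker lists, with vehicle and with RGS, were 58.8 to 64.7 and 65.4 to 88.2 CPM for macrophages (8 genes, nearly all of it from Cd68), 0.945 to 1.20 and 3.24 to 11.3 CPM for endothelium (6 genes, Cdh5 the most abundant), 393 to 582 and 290 to 318 CPM for fibroblasts (6 genes, Col1a2 the most abundant and Dcn rising with a log2 fold change of 3.24 while Col1a2, Col3a1 and Pdgfra fell), 0.399 to 1.72 and 6.72 to 21.0 CPM for keratinocytes (6 genes, of which Ivl had no count with vehicle and 5.87 to 19.6 CPM with RGS, and Trp63 and Krt1 were at 0) and 6.33 to 10.6 and 3.99 to 8.19 CPM for skeletal muscle (5 genes). The part of these differences in the results for the host genes was not tested. In bulk RNA, fewer cells of a type and less RNA per cell cannot be told apart.

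Host gene RNA was lower in RGS tumors for 5 members, from Snhg12, 5.21-fold higher with vehicle, through Snhg1, Snhg6 and Snhg15 to Gas5, 2.10-fold higher with vehicle. Snhg8 differed by less than its spread between tumors. Snhg3 had too few counts to be tested. The comparison asks what RGS treatment changed in these tumors, and it used edgeR's quasi-likelihood test on the raw counts with TMM scaling and Benjamini-Hochberg adjustment over the 15355 genes whose median count reached 5 in either group. At an adjusted p under 0.05, 5 of the 6 tested members were lower and none was higher, while 16.5% of all tested genes were lower and 16.3% higher. Lower genes were 50.3% of all calls, and 62.8% with library size scaling alone, which left the count of members as it was. At an unadjusted p under 0.05 no member was higher either. In the same 5 members all RGS tumors lay under all vehicle tumors, which held for 24.0% of all tested genes. The median log2 fold change of the 6 members was -1.28, beside -0.05 for all tested genes.

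**Figure D1:**
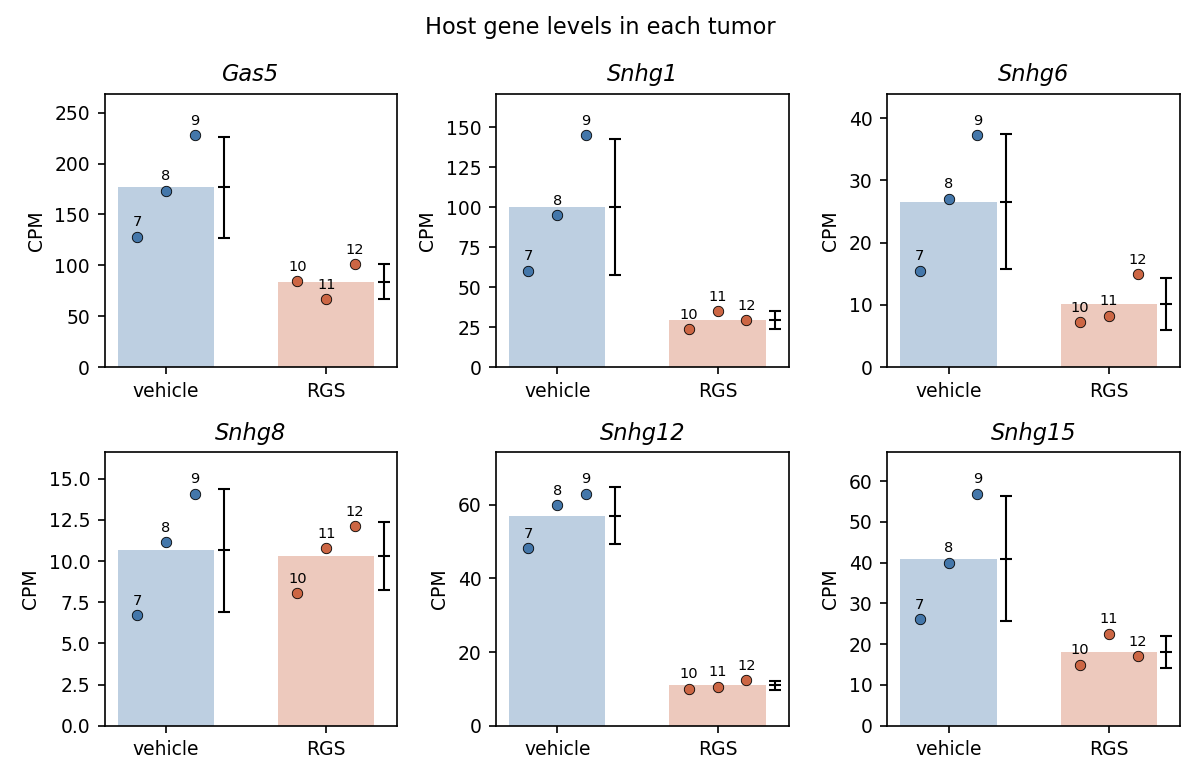
Levels of the 6 tested host genes in CPM on a linear axis from 0, with bars for the mean of 3 tumors, error bars for the SD and numbered points for the replicates. The groups are apart for Gas5, Snhg1, Snhg6, Snhg12 and Snhg15 and overlap for Snhg8, and vehicle replicate 9 is the highest vehicle tumor in every panel.

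Gas5, named for its accumulation in growth-arrested cells, had the most RNA of the 7. Its levels were 128, 173 and 228 CPM in vehicle replicates 7, 8 and 9, and 84.4, 66.7 and 101 CPM in RGS replicates 10, 11 and 12. The groups did not overlap, although the vehicle tumors themselves spanned 1.78-fold. Means of 176 ± 49.9 CPM (vehicle) and 84.1 ± 17.3 CPM (RGS; SD, n = 3 each) gave a log2 fold change of -1.07 (standard error 0.20, adjusted p = 4.79e-04 from edgeR).
Snhg1, whose introns carry box C/D snoRNAs, had 60.4, 94.9 and 145 CPM in vehicle replicates 7, 8 and 9 and 23.8, 34.9 and 29.5 CPM in RGS replicates 10, 11 and 12. Its vehicle tumors spanned 2.40-fold, and even the lowest stood well above the highest RGS tumor. Snhg1 fell by 1.77 on the log2 scale (standard error 0.25, edgeR adjusted p = 2.78e-05).
Snhg12, a host of guides of both kinds, had the largest decrease of the 6 and the narrowest vehicle range. It was measured at 48.2, 59.9 and 63.0 CPM with vehicle (replicates 7, 8 and 9) and at 9.98, 10.5 and 12.3 CPM with RGS (replicates 10, 11 and 12). Mean levels of 57.0 ± 7.82 CPM (vehicle) and 10.9 ± 1.20 CPM (RGS; SD, n = 3 each) corresponded to a log2 fold change of -2.38 (standard error 0.21, adjusted p = 9.84e-08 from edgeR).

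Snhg15 and Snhg6 each contain a snoRNA gene, Snora9 and Snord87. Snhg15 was at 26.1, 40.0 and 56.9 CPM in vehicle replicates 7, 8 and 9 and at 15.0, 22.5 and 17.0 CPM in RGS replicates 10, 11 and 12, a log2 fold change of -1.18 (standard error 0.26, adjusted p = 0.00189 from edgeR). The lowest vehicle tumor was only slightly above the highest RGS tumor. Snhg6 had 15.5, 27.1 and 37.3 CPM with vehicle (replicates 7, 8 and 9) and 7.19, 8.28 and 14.9 CPM with RGS (replicates 10, 11 and 12). Here vehicle replicate 7 and RGS replicate 12 nearly met, and the log2 fold change of -1.39 had the largest standard error of the 5 decreases (0.33, adjusted p = 0.00294 from edgeR).
Snhg8, the host of Snora24, stood apart from these. It had 6.70, 11.1 and 14.1 CPM in vehicle replicates 7, 8 and 9 and 8.04, 10.8 and 12.1 CPM in RGS replicates 10, 11 and 12. The RGS tumors lay inside the vehicle range. The log2 fold change was -0.05 with a 95% confidence interval from -0.74 to 0.65 (adjusted p = 0.931 from edgeR), so a decrease as large as that fitted for Gas5 is outside the interval, while smaller changes in either direction are not.
Snhg3, the host of Snora73a and Snora73b, had 9 counts in vehicle replicate 9 and 0 in the other 5 libraries, where a count of 0 allows up to 3 counts, or 0.0856 to 0.226 CPM (counting error only). Of its 986 annotated exon bases, 705 (71.5%) also belong to exons of Gm17300 on the opposite strand, 135 (13.7%) to Rcc1 on its own strand, and 135 (13.7%) to no other gene. Gm17300 had 49 to 238 counts and Rcc1 614 to 1571 counts per tumor. The handling of strand and of reads that fit several genes is not given in the sources used here, so the low count of Snhg3 is not a measure of its RNA.

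The other 6 hosts shared fewer exon bases with other genes. Gas5, Snhg1, Snhg8, Snhg12 and Snhg15 shared exon bases with no gene other than the snoRNAs inside them, and Snhg6 shared 127 bases (11.1%) with Mcmdc2, which had at most 1 count per tumor. The counted length equals the whole locus in Snhg1 (2969 bases), Snhg8 (853 bases) and Snhg12 (2402 bases) and covers 91.3% of it in Gas5, while it covers 42.9% in Snhg15 and 53.1% in Snhg6. GENCODE marks 20 of 25 transcripts of Gas5, 14 of 18 of Snhg1, 1 of 3 of Snhg8 and none of 10 of Snhg12 as retaining introns. Counts of these 4 hosts can therefore include RNA from annotated introns, the snoRNA sequences among it. The counted bases of Snhg15 also include its snoRNA (9.79% of them), and those of Snhg6 hold none.
Coding genes beside the hosts, picked by position after the values were known, did not follow a common direction. Slc3a2, the amino acid transporter subunit that starts 105 bases from Snhg1 on the other strand, had a log2 fold change of 0.34 (adjusted p = 0.0808 from edgeR). Prss12, 954 bases from Snhg8, rose (1.10, adjusted p = 3.73e-05), and Trnau1ap, 738 bases from Snhg12, fell by 0.84 on the log2 scale (adjusted p = 0.00328). Zbtb37, which overlaps the start of Gas5 on the opposite strand but shares no exon base with it, fell by 1.69 (adjusted p = 0.00166).

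**Figure D2:**
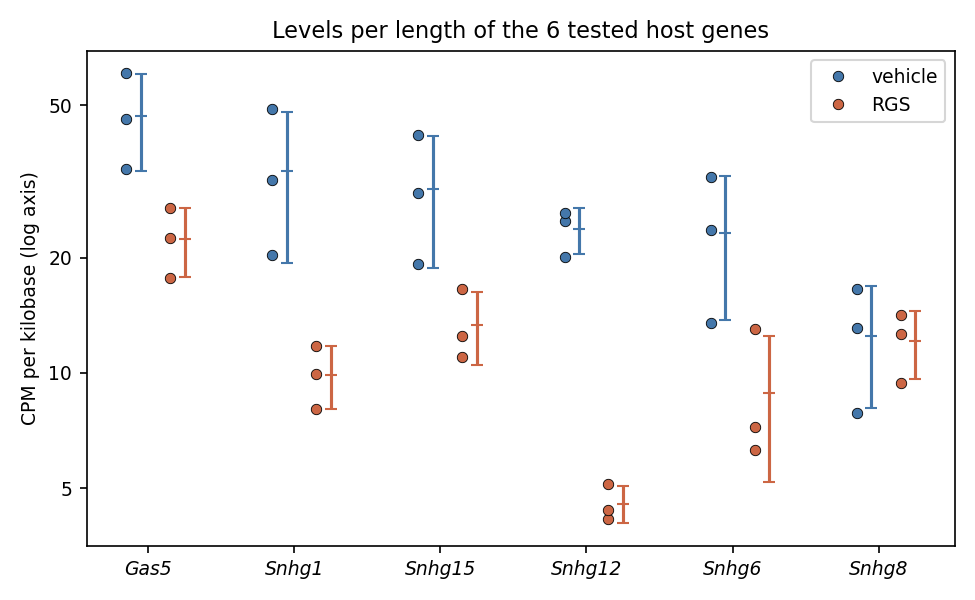
Levels per length (CPM per kilobase of counted length, log axis) of the 6 tested host genes, with a point for each tumor and the mean with its SD beside the points. Neighbouring genes overlap in vehicle tumors, while in RGS tumors Gas5 lies above the others and Snhg12 below them.

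Levels of different genes were compared per kilobase of counted length. In vehicle tumors the order of the means was Gas5 (46.9 ± 13.3 CPM per kilobase), Snhg1 (33.7 ± 14.3), Snhg15 (30.2 ± 11.3), Snhg12 (23.7 ± 3.26), Snhg6 (23.2 ± 9.50) and Snhg8 (12.5 ± 4.36; SD, n = 3 each), and no gene was separated from the next in all tumors. In RGS tumors the order was Gas5 (22.4 ± 4.60 CPM per kilobase), Snhg15 (13.4 ± 2.88), Snhg8 (12.1 ± 2.43), Snhg1 (9.90 ± 1.86), Snhg6 (8.84 ± 3.65) and Snhg12 (4.55 ± 0.501). There Gas5 was above Snhg15 in all tumors and Snhg6 above Snhg12, and the neighbours between them overlapped. Snhg8 was the lowest of the 6 by its mean with vehicle and the third with RGS.

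Whether the members differed from each other was measured within each tumor as the log2 ratio of the counts of 2 members, a quantity that does not depend on the scaling of the libraries. For Snhg8 over Snhg12 the log2 ratio was -2.85, -2.43 and -2.16 in vehicle replicates 7, 8 and 9 and -0.31, 0.03 and -0.02 in RGS replicates 10, 11 and 12. The 2 hosts, far apart with vehicle, were thus counted about equally with RGS, a shift of 2.38 on the log2 scale. For Gas5 over Snhg12 it was 1.41, 1.53 and 1.85 with vehicle and 3.08, 2.66 and 3.04 with RGS, in the same order of replicates. Snhg1 over Snhg15 moved from 1.27 ± 0.07 to 0.70 ± 0.08 (log2 ratios, SD, n = 3 each). For Gas5 over Snhg15 the groups overlapped (2.14 ± 0.15 with vehicle, 2.21 ± 0.56 with RGS). Over all 15 pairs of the 6 members, 10 had ratios that did not overlap between the groups, 9 of them with Snhg8 or Snhg12 in the pair. Ratios did not overlap in 45.9% of all pairs of the 12803 tested genes with counts in every tumor, and pairs that share a member are not independent. Each of the 10 had p = 0.1 in the two-sided exact permutation test, the smallest value that 3 tumors against 3 allow, and 0.15 after Benjamini-Hochberg adjustment over the 15 pairs, so none passed 0.05.

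**Figure D3:**
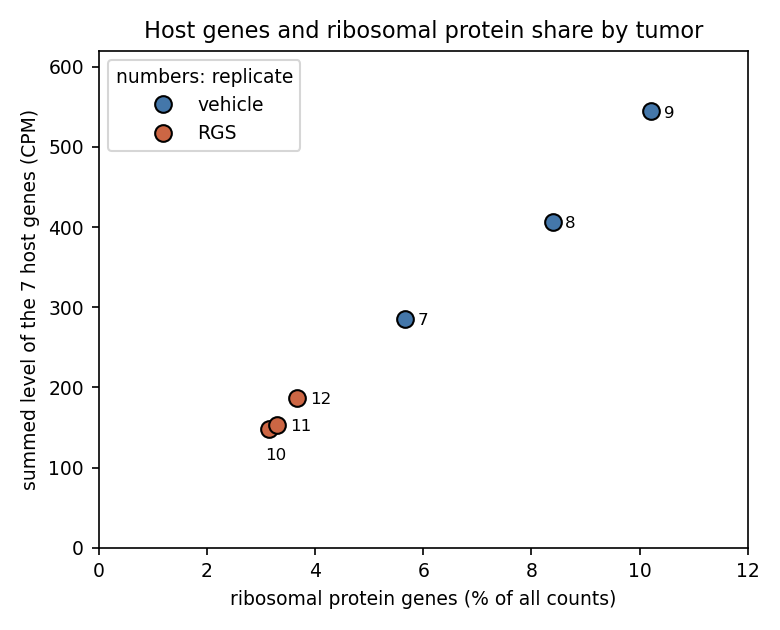
Summed level of the 7 host genes (CPM) against the share of counts in ribosomal protein genes (percent), with 1 numbered point per tumor. Tumors with a higher ribosomal protein share have a higher host sum, and the 3 RGS tumors lie at the low end of both, below every vehicle tumor.

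The vehicle tumors differed among themselves in the same way for each host. In all 6 tested members replicate 7 was the lowest and replicate 9 the highest vehicle tumor, an arrangement found in 23.5% of all tested genes, and replicate 7 was also the deepest library. Together the 7 hosts summed to 285, 407 and 545 CPM in vehicle replicates 7, 8 and 9 and to 148, 154 and 187 CPM in RGS replicates 10, 11 and 12. Set against the counts of ribosomal protein genes, this spread was much smaller. The hosts equalled 0.542%, 0.510% and 0.544% of the ribosomal protein counts with vehicle and 0.461%, 0.447% and 0.468% with RGS. The groups still did not overlap, but the means differed by 1.16-fold (0.532 ± 0.0190% and 0.459 ± 0.0109%, SD, n = 3 each), while the summed CPM differed by 2.53-fold (p = 0.1 for each in the two-sided exact permutation test, the smallest possible). Gas5 was the largest part of the sum (176 of 412 CPM with vehicle), and single hosts departed from it. Snhg12 was 5.21-fold and Snhg8 1.03-fold higher with vehicle.
The 5 genes whose levels over the 6 tumors were closest to the mean of the tested members were Btf3, Rps6, Nip7, Pigp and Mrpl13, by the root mean square difference of centred log2 CPM (0.06 for Btf3 to 0.08 for Mrpl13). Btf3 encodes the beta subunit of the nascent polypeptide-associated complex, Rps6 a protein of the small ribosomal subunit, Nip7 a ribosome biogenesis factor, Pigp a subunit of GPI anchor synthesis and Mrpl13 a mitochondrial ribosomal protein. Their log2 fold changes, from -1.48 (Pigp) to -1.30 (Nip7), follow from this choice, since closeness was measured over the tumors of both groups. Among the members themselves Snhg15 (0.19) and Gas5 (0.20) were closest to that mean, and Snhg12 (0.57) and Snhg8 (0.62) farthest from it. Each member is part of that mean, which lowers its own distance, so these values are not on equal terms with those of the 5 genes.

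**Figure D4:**
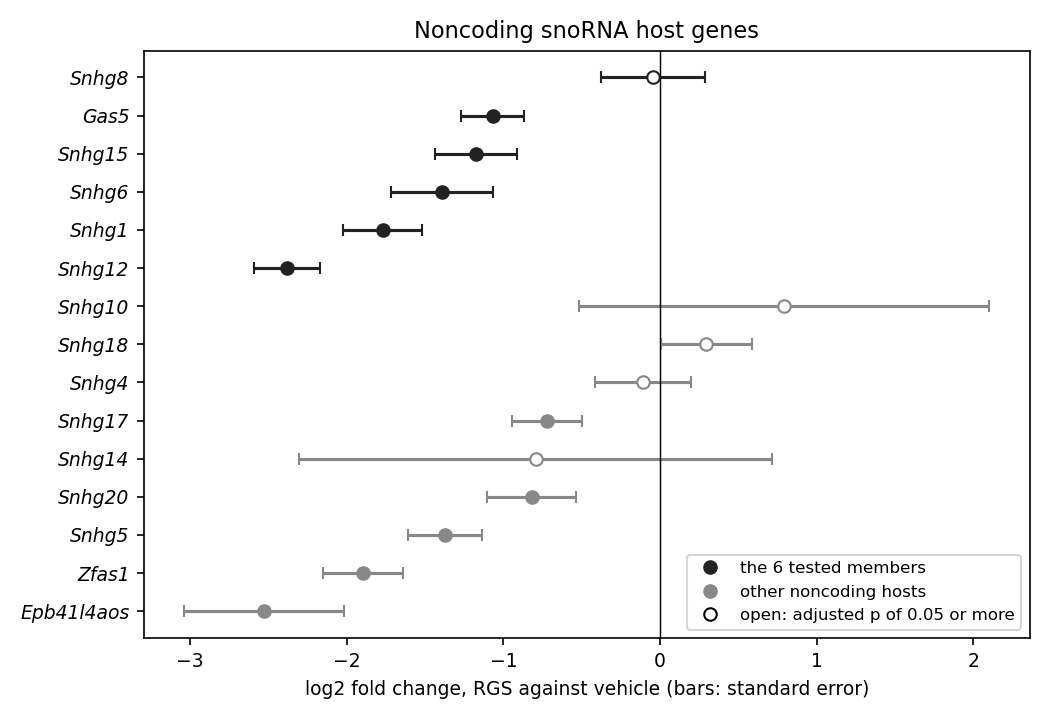
Log2 fold changes of the tested noncoding snoRNA hosts, RGS against vehicle, with standard errors, for the members in black and other hosts in grey, and open symbols for an adjusted p of 0.05 or more. Snhg12 and Epb41l4aos lie farthest to the left, and Snhg8 and Snhg4 lie near 0. Snhg11 is not drawn since RGS tumors had at most 1 count of it.

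Other noncoding snoRNA hosts were measured for 11 of 13 listed genes, and 10 were tested. Of these, 5 were lower in RGS tumors (50%, beside 16.5% of all tested genes) and none was higher (16.3% of all; edgeR, adjusted p under 0.05), and the median log2 fold change was -0.81. Snhg11 and Snhg14, neither of them called, reached the median count of 5 with vehicle only. The filter therefore favoured a negative fold change for both, and both enter that median. Zfas1, which shares 189 exon bases with Gm27494 on its own strand and 82 with Znfx1 on the opposite strand, had 96.4 ± 41.9 CPM with vehicle and 25.9 ± 3.02 with RGS (SD, n = 3 each), with a log2 fold change of -1.90 (adjusted p = 1.43e-05). Epb41l4aos had 7.65, 11.9 and 17.1 CPM in vehicle replicates 7, 8 and 9 and 1.28, 0.904 and 4.16 CPM in RGS replicates 10, 11 and 12 (log2 fold change -2.53, adjusted p = 8.49e-04). Snhg5 fell by 1.37 on the log2 scale (adjusted p = 1.99e-04). The decreases of Snhg17 (-0.72, adjusted p = 0.0178) and Snhg20 (-0.82, adjusted p = 0.0327) were the smallest of the 5, and the list had 3 lower genes, without Snhg17 and Snhg20, when vehicle replicate 9, RGS replicate 10 or RGS replicate 11 was left out. Snhg20 also lost its call without vehicle replicate 8 (adjusted p = 0.0884).
Not every host of the list was lower. Snhg4 had a log2 fold change of -0.11 (95% confidence interval -0.75 to 0.53) and Snhg18 one of 0.30 (-0.31 to 0.90), and their groups overlapped. Snhg10 and Snhg14 had at most 36 counts in any tumor, with log2 fold changes of 0.79 and -0.79 and standard errors of 1.31 and 1.51. Snhg11, labelled protein coding in the table, had 22, 5 and 21 counts with vehicle and 0, 0 and 1 with RGS. It did not pass the threshold (adjusted p = 0.0649 from edgeR) but passed it after thinning to the smallest library (0.0402). As Snhg11 entered the test through its vehicle counts alone, neither value is support for a decrease. Snhg9 had 0 counts in every library.

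**Figure D5:**
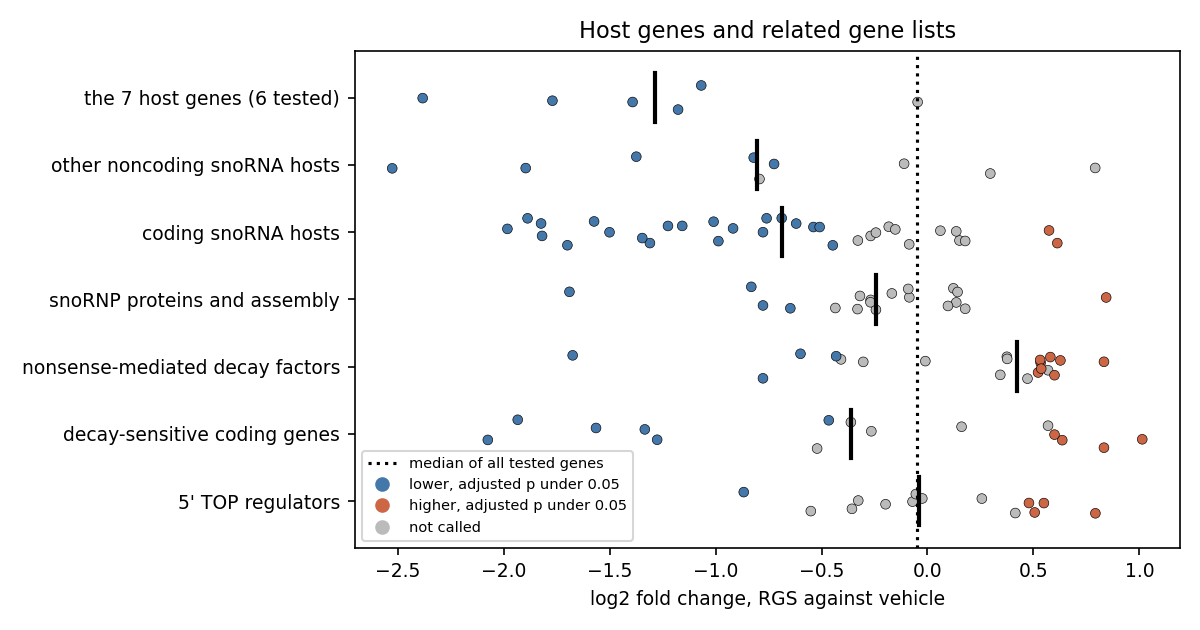
Log2 fold changes, RGS against vehicle, of the tested genes in the host set and 6 related lists, with 1 point per gene, coloured by its call, a black line at each list's median and a dotted line at the median of all tested genes. The medians of the 3 host lists lie to the left, from -1.28 to -0.69, and that of the NMD factors to the right, at 0.42. Snhg11 is not drawn, but it enters the median line of the other noncoding hosts.

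Coding genes that carry snoRNAs in their introns were lower more often than higher. Of 33 tested, 21 were lower (63.6%, beside 16.5% of all tested genes) and 2 higher (6.06%, beside 16.3%), with a median log2 fold change of -0.69. Rpl3 (2952 ± 632 CPM with vehicle, 798 ± 45.2 with RGS; log2 fold change -1.89) and Rpl5 (-1.98), both proteins of the large ribosomal subunit, had the lowest adjusted p (1.44e-07 and 2.43e-06 from edgeR). The higher genes were Nap1l4, a histone chaperone (0.57, adjusted p = 0.00669), and Prrc2a (0.61, adjusted p = 0.0165). Ribosomal protein genes have many processed pseudogenes that could share their reads. Hosts of this list that do not encode ribosomal proteins varied, with Eif4a2, a translation initiation helicase, at -1.22, Ncl, a nucleolar protein, at -0.18, and Rcc1, whose locus joins that of Snhg3, at 0.14. Of the 17 coding hosts that do not encode ribosomal proteins, 7 were lower (41.2%) and 2 higher, and 7 were lower again with mitochondrial and ribosomal protein genes left out of the fit. The call of Prrc2a was lost with library size scaling alone and without vehicle replicate 8 or 9 or RGS replicate 10 or 11 (adjusted p from 0.0504 to 0.0720), and that of Nap1l4 without RGS replicate 11 (adjusted p = 0.0552), which left 1 or 0 higher genes.
Fewer genes passed the test among the proteins that bind and assemble snoRNAs, of which Nop56, Nop58 and Dkc1 are also coding hosts. Of 19 tested genes, 4 were lower and 1 higher, with a median of -0.24, shares of 21.1% and 5.26% beside the background of 16.5% and 16.3%. Fbl, the methyltransferase of box C/D particles, was at 0.14, and Nop56 and Nop58, its core partners, were at -0.27 and -0.24, none past the threshold. Dkc1, the pseudouridine synthase, fell by 0.78 on the log2 scale (44.3 ± 5.09 CPM with vehicle, 25.9 ± 1.10 with RGS, adjusted p = 0.00407 from edgeR), and Znhit3, an assembly factor, had a log2 fold change of -1.69 (adjusted p = 7.80e-04). Gar1, a partner of Dkc1, rose (0.84, adjusted p = 0.0357), a call lost with library size scaling alone and without vehicle replicate 8 or 9 or RGS replicate 12. Without vehicle replicate 8 the lower genes numbered 2.

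Factors of the decay pathway that degrades spliced host RNAs were tested for all 20 listed genes, of which 8 were higher (40%, beside 16.3% of all tested genes) and 4 lower (20%, beside 16.5%), with a median log2 fold change of 0.42. Upf1, the central helicase, rose by 0.63 on the log2 scale (91.3 ± 14.9 CPM with vehicle, 141 ± 9.32 with RGS, adjusted p = 0.00600 from edgeR), and Upf3b, which links the exon junction complex to it, rose by 0.83 (adjusted p = 0.00496). The lower genes included Pnrc2, a decapping adaptor (-1.67, adjusted p = 2.72e-06), and Etf1, the release factor (-0.78, adjusted p = 4.20e-04). Smg1, the kinase of UPF1, was at -0.60 and past the threshold, and Upf2 at 0.57 was not. The count of 8 was not stable: it was 2 with library size scaling alone, 3 without vehicle replicate 8 or RGS replicate 12, and 5 without vehicle replicate 9, RGS replicate 10 or RGS replicate 11.
Among 15 coding genes known to have NMD-sensitive transcripts, 6 were lower (40%, beside 16.5% of all tested genes) and 4 higher (26.7%, beside 16.3%), with a median of -0.36. Gadd45b, a stress sensor, fell by 2.07 on the log2 scale (243 ± 25.1 CPM with vehicle, 57.8 ± 14.5 with RGS, adjusted p = 1.63e-07 from edgeR) and Trib3, a pseudokinase of the stress response, had a log2 fold change of -1.93 (adjusted p = 8.05e-08). Slc7a11, the cystine transporter, rose (1.01, adjusted p = 2.69e-04), as did Atf5 (0.64, adjusted p = 0.00261). Upf2, Upf3b and Smg5 stand in both of these lists.
Of the genes that regulate translation of TOP mRNAs, 14 were tested, 4 were higher (28.6%, beside 16.3% of all tested genes) and 1 was lower (7.14%, beside 16.5%), with a median of -0.04. Larp1 rose by 0.79 on the log2 scale (156 ± 35.5 CPM with vehicle, 271 ± 11.5 with RGS, adjusted p = 0.00129 from edgeR) and Tsc2, an inhibitor of mTOR signalling, rose by 0.55 (adjusted p = 0.0265). Larp4, a poly(A) binding partner, fell by 0.87 on the log2 scale (adjusted p = 4.10e-04), and Mtor itself was at 0.41 and not called. The call of Tsc2 was lost with library size scaling alone and without vehicle replicate 8 or 9 or RGS replicate 10 or 12 (adjusted p from 0.0501 to 0.157). In each of these 5 fits 1 gene of the list was higher, and without RGS replicate 11 there were 2.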

How the data were processed

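RNA from 6 YUMM3.3 tumors was sequenced as paired-end reads and aligned with STAR by the authors, who deposited raw read counts per gene, with no normalization. The submitters' processing notes name cutadapt 1.18, FastQC 0.11.7, STAR 2.7.1a, featureCounts 1.6.4 and mm10. Of the 40166 gene identifiers, 38927 were found in GENCODE M21 (GRCm38), all with the same start and end there. The deposited counts had 447 snoRNA rows, beside 1507 snoRNAs in that release. The annotation release used for counting is not given in the sources, and shared exon bases and snoRNA bases were taken from M21. The table's gene length column, which is not a sample's measurement, was used for levels per kilobase. The replicate numbers 7 to 12 are those of the sample titles. Tumors of a group differed far beyond sampling noise (chi-square per degree of freedom at least 19.6), so each was kept. No source says that they came from separate mice or that they were pooled, so p-values measure the spread between these samples.

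Counts were tested in R 4.3.3 with edgeR 4.0.16 (genes whose median count reached 5 in either group, TMM, quasi-likelihood F test, Benjamini-Hochberg over 15355 genes). Standard errors are the log2 fold change over the root of its F statistic. Alternatives used DESeq2 1.42.0, which the study names, limma 3.58.1 (voom), other factors, filters, an offset for gene length, thinned counts and each tumor left out. The procedure was also run on simulated counts with the same dispersion for every gene and far fewer changed genes than were called here. That run does not measure its error rates in these data. CPM are counts per 1000000 of the TMM-scaled library. Closeness to the members used log2(CPM + 0.5).

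The members and all gene lists were chosen with earlier results of these data known. Named genes are the members, the tested other noncoding hosts, the 2 genes of lowest adjusted p in each direction of each related list, the 5 genes closest to the members and the most abundant gene of each marker list. The result of 1 marker list is not reported here. Genes named beyond this rule (neighbours of the hosts, Eif4a2, Ncl, Rcc1, Fbl, Nop56, Nop58, Smg1, Smg5, Upf2, Mtor, Dcn, Col3a1, Pdgfra, Pecam1 and the marker genes at 0) were named after their values were seen.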

Additional observations from a re-analysis of the deposited data

How the results depend on the processing

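The count of 5 lower and 0 higher members was the same in all 19 alternatives, and so were the calls of Gas5, Snhg1, Snhg6, Snhg12 and Snhg15. In fits that lacked 1 tumor, log2 fold changes ran from -1.25 to -0.84 for Gas5, from -2.04 to -1.40 for Snhg1, from -1.81 to -1.07 for Snhg6, from -2.50 to -2.30 for Snhg12 and from -1.42 to -0.86 for Snhg15, and the largest adjusted p over all alternatives was 0.0312 (Snhg6, edgeR). Snhg8, never called, changed sign with the gene length offset (0.17), after thinning (0.0492) and among the fits without 1 tumor (-0.30 to 0.21). Snhg10 changed sign with voom (-0.71) and without 1 tumor (-0.50 to 1.70), and Snhg4 without 1 tumor (-0.36 to 0.0222). The cause was not tested. With an adjusted p under 0.01, 1562 genes were lower and 1607 higher, and the counts became 3 lower for other noncoding hosts, 1 higher for coding hosts, 2 lower and 0 higher for snoRNP genes, 2 higher for decay factors and 1 higher for TOP regulators. With library size alone the median of all genes shifted by -0.14, the lower share of calls went from 50.3% to 62.8%, and the higher counts became 1 (coding hosts), 0 (snoRNP genes), 2 (decay factors) and 1 (TOP regulators). The 7 lower coding hosts in the fit without ribosomal protein genes follow from fewer genes tested. Without 1 tumor the counts ranged from 3 to 5 for lower other noncoding hosts, 0 to 3 for higher coding hosts, 2 to 5 and 0 to 1 for lower and higher snoRNP genes, 3 to 10 for higher decay factors and 1 to 6 for higher TOP regulators. No paired analysis was possible because the groups share no replicate number. Snhg3, Snhg10, Snhg11 and Snhg14 had at most 36 counts in any tumor. Snhg11 passed the threshold only after thinning (adjusted p = 0.0402 from edgeR). As it entered the test through its vehicle counts alone, this pass is not support for a decrease. Without the filter on low counts Snhg3 had no call (adjusted p = 0.289 from edgeR).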
